A study of Mus musculus with 31 samples.

Results

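The genes described here are 48 members of the TGF-beta and BMP signalling pathway, chosen by gene symbol from 38283 genes in each of the deposited tables, and every one was found in both. By role they comprised 3 TGF-beta ligands, 9 BMP and GDF ligands, 3 activin and inhibin subunits, 4 latent TGF-beta binding proteins, 11 receptors, 6 antagonists or follistatin family members, 5 receptor-regulated or common Smads, 2 inhibitory Smads and 5 targets. The study asked how Igf2 made by the pancreatic mesenchyme acts on the pancreas, with RNA-seq of C57BL/6 mice at postnatal day 2. Pancreata were sorted into YFP-positive mesenchymal and YFP-negative non-mesenchymal cells. All groups carried the Nkx3.2-Cre allele, which directs recombination to the mesenchyme. H19DMD mutants were H19DMDfl/+; Nkx3.2+/Cre, with 4 libraries of each fraction, and their controls were H19DMD+/+; Nkx3.2+/Cre, with 3 libraries of each fraction. Igf2 mutants were Igf2+/fl; Nkx3.2Cre/+, with 3 non-mesenchymal libraries, and their controls were Igf2+/+; Nkx3.2Cre/+, with 4. The H19DMD region controls the imprinted Igf2 and H19 genes, and the series describes its deletion as overexpression of Igf2. Mesenchymal cells of the Igf2 model were not analysed here, so its non-mesenchymal cells are neighbours of the recombined cells and not the recombined cells themselves.

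Ligands of this family are secreted as dimers and bind pairs of type I and type II receptor kinases. TGF-beta and activin signals are carried by Smad2 and Smad3 and BMP signals by Smad1 and Smad5, in each case together with Smad4, while Smad6 and Smad7 inhibit the receptors. Latent binding proteins hold TGF-beta in the matrix, and follistatins, gremlins, chordin and noggin bind ligands outside the cell. In the developing pancreas, signals of this family pass between mesenchyme and epithelium and are known to affect acinar and endocrine differentiation.

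Values above 0 were listed for 17476 to 19352 genes per library of the H19DMD model and for 19199 to 20918 per library of the Igf2 model. Values are FPKM, which scale fragments by transcript length and by the mapped fragments of the library, so the read depth behind each value is unknown. Nothing in the labels says whether replicates came from separate animals, so p-values measure only the spread between these libraries. Igf2 stood between 3648 and 4024 FPKM in the mesenchymal controls and between 6162 and 7923 in the mesenchymal H19DMD mutants, with no overlap but an adjusted p of 0.927. H19 stood between 2437 and 2454 FPKM in the controls and between 565 and 835 in the mutants, a fall of 1.82 on the log2 scale (adjusted p = 0.0458). In the non-mesenchymal cells of the Igf2 model, Igf2 was 71.5 to 144 FPKM in controls and 24.97 to 147 in mutants.

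The labelled fractions were checked against marker lists, summed per library. Mesenchymal markers summed to between 5539 and 7121 FPKM in the mesenchymal libraries, against 161 to 283 in the non-mesenchymal H19DMD libraries and 221 to 448 in those of the Igf2 model. In the non-mesenchymal H19DMD controls 7 of 11 mesenchymal markers had a mean of at least 1 FPKM, and Nkx3-2 and Barx1 were listed at 0 in every library. Acinar markers summed to 550 to 1712 FPKM in mesenchymal libraries and to 37728 to 101211 in the non-mesenchymal H19DMD libraries, and Ptf1a was listed at 0 in every mesenchymal library. Endocrine markers gave 35.0 to 217 and 10969 to 29320 FPKM in the same order, ductal markers 14.6 to 80.8 and 824 to 1527, leukocyte markers 16.3 to 66.8 and 302 to 616, erythroid markers (4 of 6 found) 9.66 to 20.9 and 23.1 to 327, and neural and Schwann markers 1.09 to 8.73 and 18.3 to 54.1. Endothelial markers ran the other way, at 71.3 to 122 FPKM in the mesenchymal libraries and 15.9 to 39.5 in the non-mesenchymal ones, as did mesothelial markers, at 83.4 to 264 and 1.18 to 7.91, and smooth muscle and pericyte markers, at 128 to 770 and 13.6 to 22.5. The mesenchymal fraction therefore held RNA of these vessel, surface and muscle lists beside the mesenchymal markers. In sorted bulk samples, fewer cells of a type and less RNA per cell cannot be told apart.

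Levels of the members differed widely within a fraction. Of the 48 members, 42 had a mean of at least 1 FPKM in the mesenchymal controls and 26 a mean of at least 10, against 36 and 14 in the non-mesenchymal controls of the H19DMD model. Since FPKM is scaled by length, levels can be ordered between genes. In the mesenchymal controls Fstl1 was highest at 583 ± 77.3 FPKM (SD, n = 3), ahead of Ltbp4 at 89.2 ± 31.7, Bmpr2 at 55.2 ± 6.69, Smad4 at 54.4 ± 13.7 and Smad5 at 45.8 ± 2.70. Fstl1 stood beyond the spread of every other member, while Bmpr2, Smad4 and Smad5 did not differ from their neighbours beyond their SDs. In the non-mesenchymal controls of the H19DMD model the order began with Smad3 at 57.5 ± 15.4 FPKM, Id2 at 51.7 ± 14.5 and Fstl1 at 40.4 ± 7.62, and these neighbours lay within their spread. Smad4 came next there, at 39.8 ± 14.5 FPKM. The order differed in the non-mesenchymal controls of the Igf2 model, with Fstl1 at 68.1 ± 12.2 FPKM (n = 4), Smad4 at 53.0 ± 6.44, Id2 at 48.9 ± 9.21 and Smad3 at 46.1 ± 9.502. The median coefficient of variation between replicates, over members with a mean of at least 1 FPKM, was 18.5% in the mesenchymal controls and 23.2 to 28.8% in the other 5 groups. Pairs of replicates within a group correlated only moderately on the log2 scale, with Pearson r from 0.635 to 0.725. Summed FPKM was also concentrated, with the top 3 features taking 38.2 to 82.5% depending on the library. That share was 60.5 to 75.5% in the Igf2 controls and 74.2 to 82.5% in the Igf2 mutants. Its part in the values of the members was not tested.

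**Figure D1:**
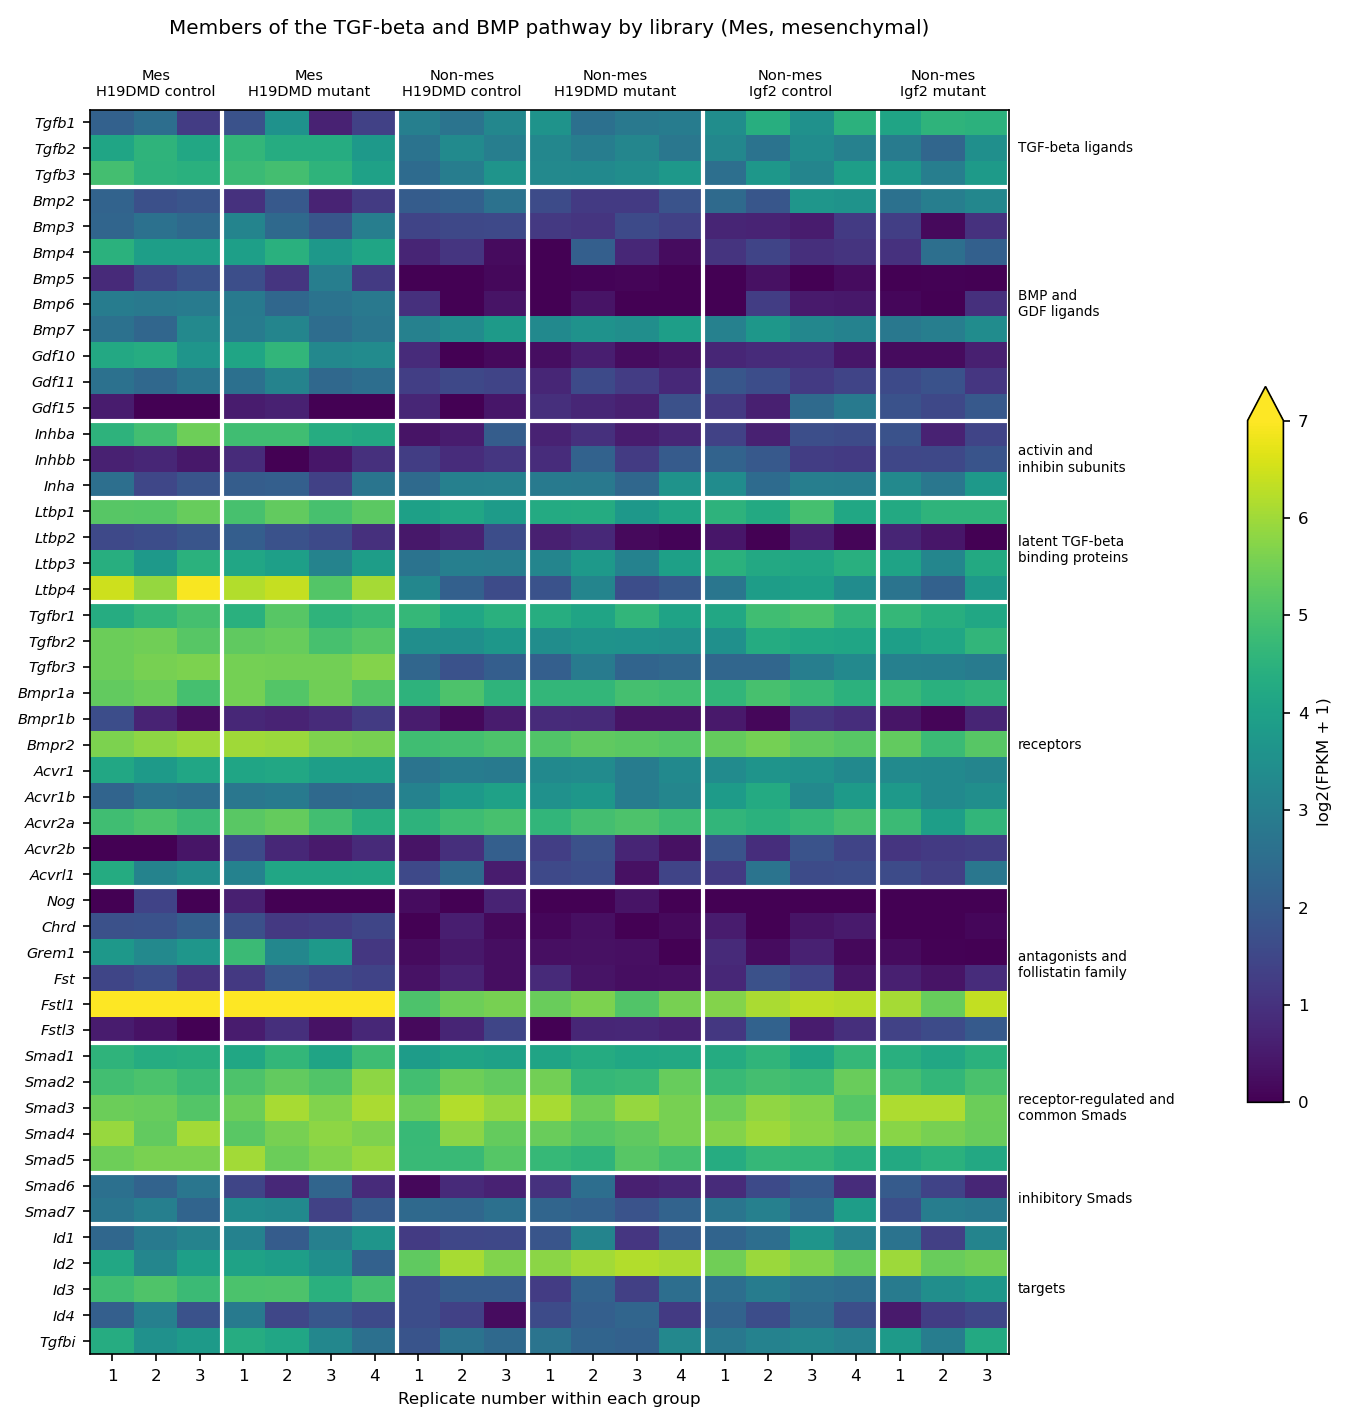
Heat map of log2(FPKM + 1) for the 48 members (rows, grouped by role) in the 21 libraries (columns, grouped by fraction, model and genotype, numbered by replicate); the colour scale runs from 0 to 7 and higher values take the top colour. Fstl1, Ltbp4, Tgfbr3, Inhba, Bmp4 and Id3 are brighter in the 7 mesenchymal libraries and Id2 is brighter in the 14 non-mesenchymal ones.

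The first comparison was between the fractions in the H19DMD controls, 3 mesenchymal against 3 non-mesenchymal libraries. Most differences ran toward the mesenchyme: of 41 members tested, 24 were higher there, 2 were lower (Id2 and Acvr1b) and 15 did not pass. The call was a limma adjusted p under 0.05 over the 16732 genes averaging 1 FPKM or more in the 6 libraries, and 22.6% of those genes were called, 12.4% higher and 10.3% lower. The median log2 difference was 1.23 over the members tested and 0.08 over all genes tested. Rescaling the libraries by the median ratio moved the medians to 1.11 and -0.03, a shift of -0.11 over all genes. The low filter admits some members through 1 fraction alone: 7 of the 41 (Bmp4, Bmp6, Gdf10, Chrd, Grem1, Fst and Smad6) had a non-mesenchymal mean under 1 FPKM and so had to differ to be tested. Of the 34 members with at least 1 FPKM in both fractions, 18 were called higher and 2 lower. The shares over all genes above include genes admitted through 1 fraction, so they are not a like background for these 34. The 7 members too low to test were Bmp5, Gdf15, Inhbb, Bmpr1b, Acvr2b, Nog and Fstl3.

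The ligands with the clearest mesenchymal excess were Bmp4, Gdf10 and Inhba, and Grem1, which encodes the BMP antagonist gremlin, moved with them. The bases upstream of these 4 genes are shown because the genes differed together, and those of Smad6, an inhibitory Smad induced by BMP signals, because it gave the smallest p among the members in the mutants' mesenchyme. Each window holds the 250 bases before the RefSeq start in GRCm38.p6, 5′ to 3′ on the strand of the gene, and none overlaps an annotated exon. Capitals mark GGCGCC, a GC-rich element bound by BMP Smads, and CAGAC or its reverse complement GTCTG, a Smad binding element. The matches do not overlap each other. The windows lay at chr14:46390670-46390919 (minus strand) for Bmp4, chr14:33923337-33923586 (plus strand) for Gdf10, chr13:16011601-16011850 (plus strand) for Inhba, chr2:113758649-113758898 (minus strand) for Grem1 and chr9:64022060-64022309 (minus strand) for Smad6.
Bmp4: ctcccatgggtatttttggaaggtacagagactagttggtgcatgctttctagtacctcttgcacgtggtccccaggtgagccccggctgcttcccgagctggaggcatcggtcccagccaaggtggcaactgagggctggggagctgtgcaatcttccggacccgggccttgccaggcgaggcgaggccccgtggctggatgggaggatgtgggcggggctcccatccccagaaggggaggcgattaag
Gdf10: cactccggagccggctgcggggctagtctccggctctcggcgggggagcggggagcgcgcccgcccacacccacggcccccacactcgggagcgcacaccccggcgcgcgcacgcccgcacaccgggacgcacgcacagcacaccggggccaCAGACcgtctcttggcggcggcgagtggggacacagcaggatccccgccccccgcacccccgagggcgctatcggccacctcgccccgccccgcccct
Inhba: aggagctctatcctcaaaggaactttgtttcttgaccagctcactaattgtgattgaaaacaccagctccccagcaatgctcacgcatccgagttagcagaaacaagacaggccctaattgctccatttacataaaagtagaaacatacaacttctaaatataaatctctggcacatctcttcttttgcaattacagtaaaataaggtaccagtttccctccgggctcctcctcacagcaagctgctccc
Grem1: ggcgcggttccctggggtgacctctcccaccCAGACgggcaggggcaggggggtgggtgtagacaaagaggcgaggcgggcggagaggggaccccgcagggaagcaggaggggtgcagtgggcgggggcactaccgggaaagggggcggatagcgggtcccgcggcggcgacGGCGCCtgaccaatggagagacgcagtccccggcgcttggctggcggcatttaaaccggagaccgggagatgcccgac
Smad6: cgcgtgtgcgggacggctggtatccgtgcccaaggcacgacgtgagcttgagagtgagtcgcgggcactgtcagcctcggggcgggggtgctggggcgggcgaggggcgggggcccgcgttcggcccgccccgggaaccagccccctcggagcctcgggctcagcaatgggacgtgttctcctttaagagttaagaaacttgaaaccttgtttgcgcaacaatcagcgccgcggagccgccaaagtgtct

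Searched on both strands, GGCGCC was found once in the Grem1 window and not in the other 4, and CAGAC was found once each in the windows of Gdf10 and Grem1. RefSeq windows were matched for 36 of the 48 members, 45 windows in all because some genes have several starts. GGCGCC was in 24.4% of these and in 9.59% of all 32851 windows of that length, and CAGAC was in 48.9% and 42.2%. A match is a description of the letters and not a binding site, and base composition was not matched between the 2 sets of windows. The GC content of the 5 printed windows ran from 43.2% for Inhba to 78.8% for Gdf10.

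Of the TGF-beta ligands, Tgfb2 and Tgfb3 were higher in mesenchymal cells and Tgfb1 did not pass. Tgfb2 read 16.5, 22.4 and 17.3 FPKM in the 3 mesenchymal controls and 5.30, 9.15 and 6.94 in the 3 non-mesenchymal controls. Tgfb3 read 29.0, 21.8 and 20.8 FPKM against 4.43, 6.80 and 11.3. For both genes every mesenchymal library lay above every non-mesenchymal one, with log2 differences of 1.29 ± 0.24 (SE, adjusted p = 0.0133) and 1.61 ± 0.34 (adjusted p = 0.019). Tgfb1, the family member abundant in blood and immune cells, lay the other way at 3.53, 4.76 and 1.36 FPKM against 7.05, 5.45 and 8.49. Its libraries did not overlap either, but the adjusted p was 0.124. Leukocyte marker sums, given above, were also lower in the mesenchymal libraries, and their part in the Tgfb1 values was not tested.

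Of the BMP and GDF ligands, 5 of the 7 tested were higher in mesenchymal cells. Among these 5, Bmp4, Bmp6 and Gdf10 had a non-mesenchymal mean under 1 FPKM and so had to differ to be tested. Bmp4, a BMP ligand used in many mesenchymal to epithelial signals, read 21.4, 14.3 and 14.2 FPKM in mesenchymal controls and 0.649, 1.11 and 0.157 in non-mesenchymal controls. Gdf10, also called Bmp3b, read 17.8, 19.01 and 11.5 FPKM against 0.810, 0 and 0.129. The groups were far apart for both, and the log2 differences were 3.45 ± 0.31 (adjusted p = 0.000841) and 3.72 ± 0.33 (adjusted p = 0.000817). Bmp6 stood at 6.17 to 6.61 FPKM against 0 to 0.9749, a log2 difference of 2.44 ± 0.31 (adjusted p = 0.00317). Bmp3 and Gdf11, a relative of myostatin, showed smaller gaps, with means of 4.43 against 1.84 FPKM and 4.94 against 1.68 FPKM, and both passed without overlap. Bmp7, at 3.95 to 8.76 against 7.37 to 13.1 FPKM, and Bmp2, at 2.24 to 3.67 against 3.14 to 5.20, gave -0.69 ± 0.34 and -0.35 ± 0.27 on the log2 scale and did not pass. The ligand calls thus covered Bmp3, Bmp4, Bmp6, Gdf10 and Gdf11, and Bmp5 and Gdf15 were too low to test.

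Among activin subunits, Inhba, which forms activin A, was higher in mesenchymal controls. It read 22.0, 28.6 and 43.3 FPKM there and 0.292, 0.444 and 3.21 in non-mesenchymal controls, where the third library stood above the other 2, a log2 difference of 3.97 ± 0.52 (adjusted p = 0.00349). Inha, whose product joins a beta subunit to make inhibin, gave 1.83 to 4.85 against 4.33 to 7.37 FPKM, overlapping ranges that did not pass (-0.88 ± 0.35, adjusted p = 0.14). The subunits thus lay on opposite sides, of which only the Inhba difference passed.

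Of the 4 latent TGF-beta binding proteins, Ltbp1, Ltbp3 and Ltbp4 were called higher in mesenchymal controls. Ltbp4, which anchors latent TGF-beta to elastic fibres, read 87.1, 58.6 and 122 FPKM in mesenchymal controls and 8.53, 3.47 and 2.01 in non-mesenchymal controls. Ltbp1 read 35.2, 34.7 and 40.3 FPKM against 14.7, 16.8 and 13.5. Ltbp3 read 20.1, 12.8 and 21.1 FPKM against 5.36, 7.09 and 6.98. None of the 3 overlapped between fractions, and the log2 differences were 4.10 ± 0.49 for Ltbp4, 1.24 ± 0.17 for Ltbp1 and 1.32 ± 0.25 for Ltbp3, with adjusted p of 0.0024, 0.00363 and 0.0132. Ltbp2 had means of 2.203 and 1.03 FPKM and did not pass (adjusted p = 0.236).

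Of the 9 receptors tested, 5 were higher and 1 was lower in the mesenchyme. Tgfbr3, the coreceptor betaglycan, read 41.9, 46.1 and 48.4 FPKM in mesenchymal controls and 3.93, 2.37 and 3.23 in non-mesenchymal controls, a 14.3-fold difference of means (log2 3.49 ± 0.20, adjusted p = 0.000211). Tgfbr2, the type II TGF-beta receptor, read 42.3, 43.3 and 35.0 FPKM against 9.95, 10.2 and 12.2 (1.81 ± 0.17, adjusted p = 0.00105). Its type I partner Tgfbr1 read 19.1, 23.7 and 29.7 FPKM against 24.2, 16.7 and 20.9, with overlap and a log2 difference of 0.22 (95% interval -0.36 to 0.79). Of the TGF-beta receptors, Tgfbr2 and Tgfbr3 were thus called higher and the interval for Tgfbr1 held 0. Among BMP and activin receptors, Bmpr2, the type II BMP receptor, averaged 29.6 ± 1.89 FPKM in non-mesenchymal and 55.2 ± 6.69 in mesenchymal controls (adjusted p = 0.0128). Acvr1, a type I BMP receptor, averaged 6.14 ± 0.589 and 15.8 ± 2.32 (adjusted p = 0.00621). Bmpr1a and Acvr2a gave log2 differences of 0.50 ± 0.23 and 0.12 ± 0.18 and did not pass. Acvr1b, the type I activin receptor Alk4, was the receptor called lower in mesenchyme, at 3.79, 5.31 and 4.88 FPKM against 7.58, 12.9 and 15.1 (-1.14 ± 0.29, adjusted p = 0.0379).

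Acvrl1, the endothelial receptor Alk1, read 18.8, 7.78 and 9.995 FPKM in mesenchymal and 1.93, 4.35 and 0.442 in non-mesenchymal controls (2.13 ± 0.56, adjusted p = 0.0413). Every mesenchymal library was higher. Endothelial marker sums differed between the same libraries, at 78.4 to 86.1 FPKM against 15.9 to 39.5, with 7 and 5 of 7 markers at a mean of at least 1 FPKM and none listed at 0 throughout. Their part in the values of Acvrl1, and of Smad6, Id1 and Id3, which endothelial cells also express, was not tested.

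Of the secreted antagonists, 3 of 4 tested passed, all higher in the mesenchyme. Grem1, Chrd and Fst had a non-mesenchymal mean under 1 FPKM and so had to differ to be tested. Only Fstl1 had at least 1 FPKM in both fractions. Fstl1, a secreted follistatin-like glycoprotein, read 530, 671 and 546 FPKM in mesenchymal controls and 31.9, 42.9 and 46.5 in non-mesenchymal controls. Grem1 read 12.3, 8.77 and 11.9 FPKM against 0.153, 0.363 and 0.206. Chrd, encoding the BMP antagonist chordin, read 2.33, 2.43 and 3.22 FPKM against 0, 0.494 and 0.112. The fractions did not overlap for any of these, with log2 differences of 3.83 ± 0.21, 3.26 ± 0.23 and 1.62 ± 0.31 and adjusted p of 0.00017, 0.000396 and 0.0131. Fst, encoding the activin antagonist follistatin, was 1.07 to 2.16 FPKM against 0.202 to 0.585 without overlap, but its adjusted p was 0.0888. Nog, encoding noggin, was listed at 0 in 2 of 3 mesenchymal controls and in all 7 libraries of the Igf2 model.

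Of the 5 Smads that carry the signal, Smad5 alone passed, at 42.7, 47.5 and 47.2 FPKM in mesenchymal controls against 25.8, 26.0 and 34.4 in non-mesenchymal controls. Its log2 difference was 0.67 ± 0.18 (adjusted p = 0.0443), and over the alternatives the adjusted p ran from 0.035 to 0.129, with median-ratio scaling among those that ended the call. Smad1, Smad2, Smad3 and Smad4 gave 0.43 ± 0.16, -0.33 ± 0.20, -0.52 ± 0.24 and 0.47 ± 0.34, and none passed. Of the inhibitory Smads, Smad6 read 5.05, 3.70 and 5.77 FPKM against 0.107, 0.776 and 0.606 (1.98 ± 0.30, adjusted p = 0.0062). Smad7 read 5.65, 7.14 and 3.77 FPKM against 4.26, 4.10 and 5.02, overlapping ranges with an interval of -0.40 to 0.86.

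The Id genes, which encode inhibitors of basic helix-loop-helix factors and are classical BMP targets, did not move together. Id3 read 28.0, 32.9 and 26.5 FPKM in mesenchymal controls and 2.13, 2.995 and 2.996 in non-mesenchymal controls, 10.8-fold higher by means (3.03 ± 0.19, adjusted p = 0.000288). Id1 read 4.05, 6.33 and 7.83 FPKM against 1.33, 1.80 and 1.89 (1.37 ± 0.28, adjusted p = 0.0176). Id2 read 17.3, 8.32 and 14.5 FPKM against 38.3, 67.2 and 49.6, 3.87-fold higher in the non-mesenchymal cells by means (-1.89 ± 0.33, adjusted p = 0.0103). No library crossed between fractions for these 3 genes, with Id1 and Id3 high in mesenchyme and Id2 high outside it. Id4 gave 1.23 ± 0.52 and did not pass, although its mesenchymal libraries were all higher. Tgfbi, a matrix protein induced by TGF-beta, read 19.1, 10.6 and 13.2 FPKM against 2.501, 5.32 and 4.23 (1.61 ± 0.32, adjusted p = 0.0163).

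**Figure D2:**
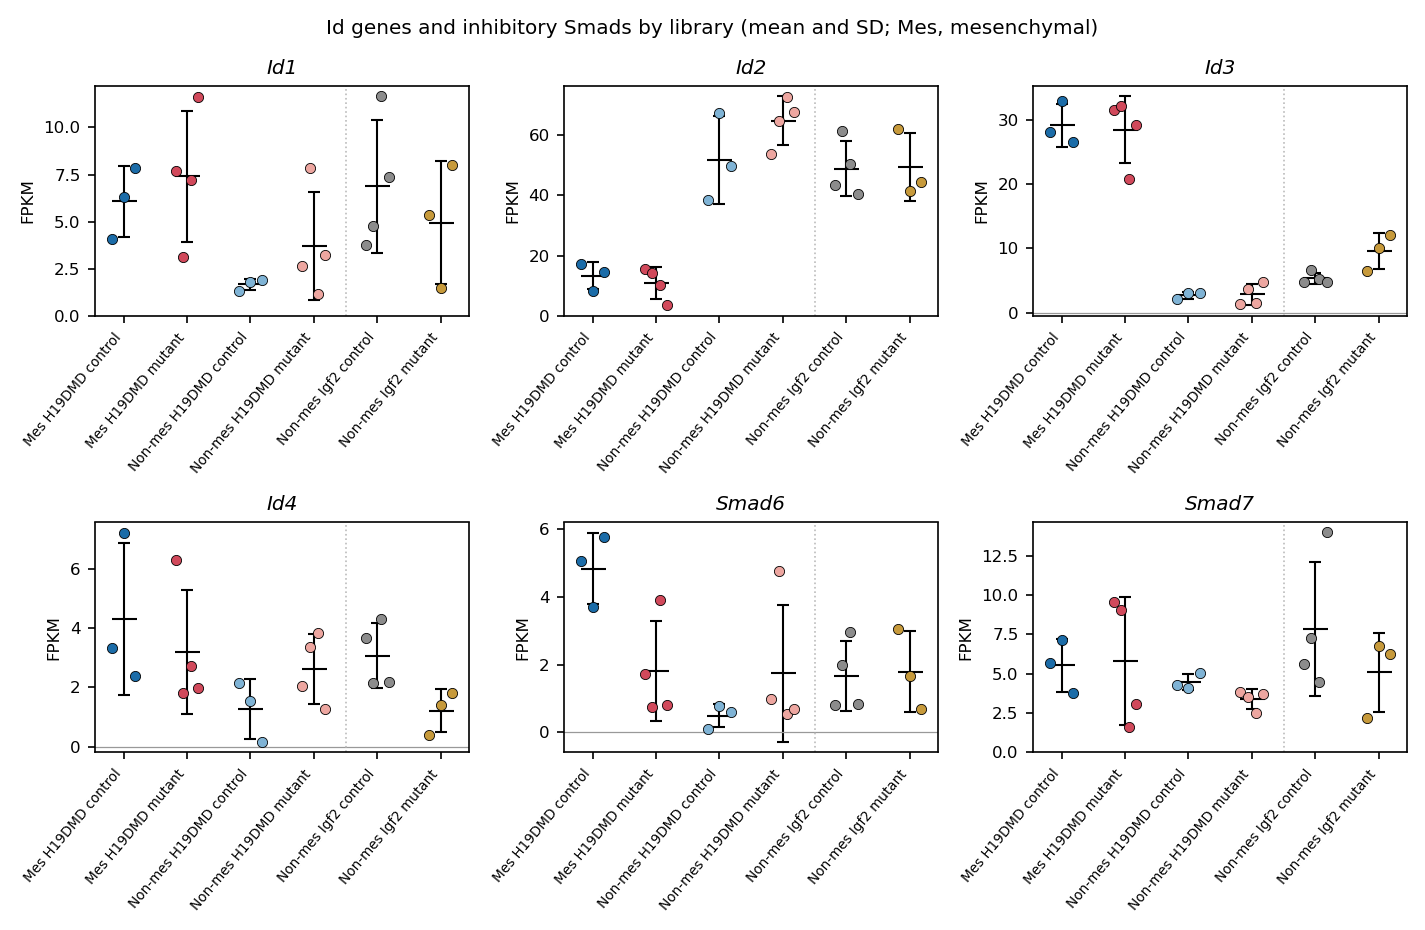
FPKM of the 4 Id genes and the inhibitory Smads Smad6 and Smad7 in each library (points), with the mean and SD of each group (bar and whiskers); the dotted line separates the H19DMD table from the Igf2 table, which were normalised separately. Id3 sits between 20.9 and 32.9 FPKM in the mesenchymal groups and at or under 12.1 elsewhere, whereas Id2 is at or under 17.3 in the mesenchymal groups and at least 38.3 elsewhere.

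Counting libraries rather than p-values, 27 members tested were higher and 3 lower in all mesenchymal controls than in any non-mesenchymal control, where 39.9% of all genes tested had such a gap, 22.4% higher and 17.4% lower. After median-ratio scaling these counts were 26 higher and 8 lower, the latter Tgfb1, Bmp2, Bmp7, Inha, Acvr1b, Smad2, Smad3 and Id2. No share over all genes is given at that scaling. Whether the added lower members reflect more than the shift of all genes therefore cannot be told. With 3 against 3 libraries an exact permutation test cannot give a p under 0.1, so single genes rest on the limma fit. Of the 26 calls, 15 kept an adjusted p under 0.05 in every alternative setting that tested them, and 11 lost it in at least 1 (Tgfb3, Bmp3, Gdf11, Ltbp3, Acvr1b, Acvrl1, Chrd, Smad5, Id1, Id2 and Tgfbi). Without the third mesenchymal control, 17 calls were left. Leaving out that library ended the calls of Tgfb3, Bmp3, Gdf11, Acvr1b, Acvrl1, Chrd, Smad5, Id1 and Tgfbi, and leaving out the first ended those of Tgfb3, Bmp3, Gdf11, Ltbp3, Acvr1b, Acvrl1, Smad5 and Tgfbi. Tgfb3, Bmp3, Acvr1b, Acvrl1, Smad5 and Id1 were each lost without any of 4 or more of the 6 libraries, with adjusted p reaching 0.0706, 0.0816, 0.121, 0.117, 0.129 and 0.0614 over the alternatives. Exons of 16 members overlap an exon of another annotated gene, 14 of them on the opposite strand, and whether strand was used in counting is not given in the sources used here. Among members named so far these are Tgfb2, Tgfb3, Bmp4, Bmp5, Bmp6, Ltbp2, Ltbp3, Tgfbr3, Bmpr1a, Acvr2a, Acvrl1, Chrd, Fst, Fstl3, Smad5 and Id4, whose values are uncertain to that extent; Bmp6, for example, overlaps Txndc5.

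The same contrast was made in the H19DMD mutants, 4 against 4 libraries that were not used in the controls. Of 43 members tested, 23 were higher in mesenchymal cells, 3 were lower and 17 did not pass, where 28.6% of 16767 genes were called, 13.5% higher and 15.1% lower. The median log2 difference was 0.91 over the members tested and -0.03 over all genes tested. The calls higher in both contrasts numbered 19, which is 79.2% of those in controls and 82.6% of those in mutants. Over all genes, 1513 were called higher in both, 73.2% and 66.8% of those called in each. Id2 and Acvr1b were called lower in both, and Bmp7 was called lower in the mutants with -0.73 ± 0.21 (adjusted p = 0.0338), near its -0.69 in the controls. Of the 26 calls in the mutants, 7 were lost in at least 1 alternative: Acvr1b and Bmp7 in 7 of 15 each, Bmpr1a in 9 of 15, Bmpr2 in 1 of 15, Bmp5 and Fst in 5 of 13 each, and Ltbp2 in 4 of 13. Their adjusted p reached 0.0992 for Acvr1b and 0.0875 for Bmp7. In 23 and 3 of the 43 members all mesenchymal mutants lay above or below all non-mesenchymal ones, where 31% of all genes had such a gap, 14.4% higher and 16.6% lower. Of the 43, 9 (Bmp5, Bmp6, Gdf10, Inhba, Inhbb, Ltbp2, Acvr2b, Grem1 and Fst) had a mean under 1 FPKM in 1 fraction and so had to differ to be tested. Of the 34 with at least 1 FPKM in both, 16 were called higher and 3 lower, again without a like background over all genes.

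Fstl1 read 489, 577, 501 and 615 FPKM in the mesenchymal mutants and 41.2, 47.8, 33.6 and 46.4 in the non-mesenchymal mutants (3.67 ± 0.16, adjusted p = 3.03e-06). Inhba read 27.7, 27.9, 19.1 and 17.9 FPKM against 0.586, 0.977, 0.440 and 0.693 (3.83 ± 0.21). Id2 read 15.5, 14.2, 10.3 and 3.503 FPKM against 53.6, 64.8, 72.7 and 67.8 (-2.62 ± 0.39, adjusted p = 0.0015). These genes kept the sides they took in the controls, with no overlap between fractions. Grem1 read 26.2, 8.42, 12.6 and 1.18 FPKM in the mutants' mesenchyme, an SD of 10.5 against 1.94 in the controls', with a log2 difference of 2.995 ± 0.69, which was 3.69 without the fourth library. Of the mesenchymal mutants, the fourth library had the lowest Grem1, Id2 and Tgfbi values, and its smooth muscle and pericyte markers summed to 128 FPKM against 382 to 705 in the other 3. Ltbp3, Smad6, Id1 and Tgfbi passed in controls and not in mutants, Chrd was too low to test there, and Bmp5, Ltbp2, Bmpr1a and Fst passed in the mutants and not in the controls. Bmp5 was not tested in the controls, and Bmp5, Ltbp2 and Fst were tested in the mutants only through their mesenchymal level.

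The difference between the contrasts was tested as the interaction of deletion and fraction, and 0 of 43 members passed, with a lowest adjusted p of 0.755 (limma). Of 17105 genes, 0.0117% passed. At an unadjusted p under 0.05 there were 2 members, Smad6 and Ltbp3, where 6.35% of all genes had such a p. The effect of the deletion in mesenchymal cells minus that in non-mesenchymal cells was -1.84 ± 0.68 for Smad6 (95% interval -3.32 to -0.37) and -1.04 ± 0.41 for Ltbp3 (-1.92 to -0.16). Acvr1, Smad3 and Id4 followed with -0.44 ± 0.23, 0.59 ± 0.33 and -1.08 ± 0.65, the last reaching -0.65 without the third non-mesenchymal control. The median over all genes tested was -0.11, and -0.01 after median-ratio scaling. No member's fraction difference is therefore shown to depend on the deletion.

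**Figure D3:**
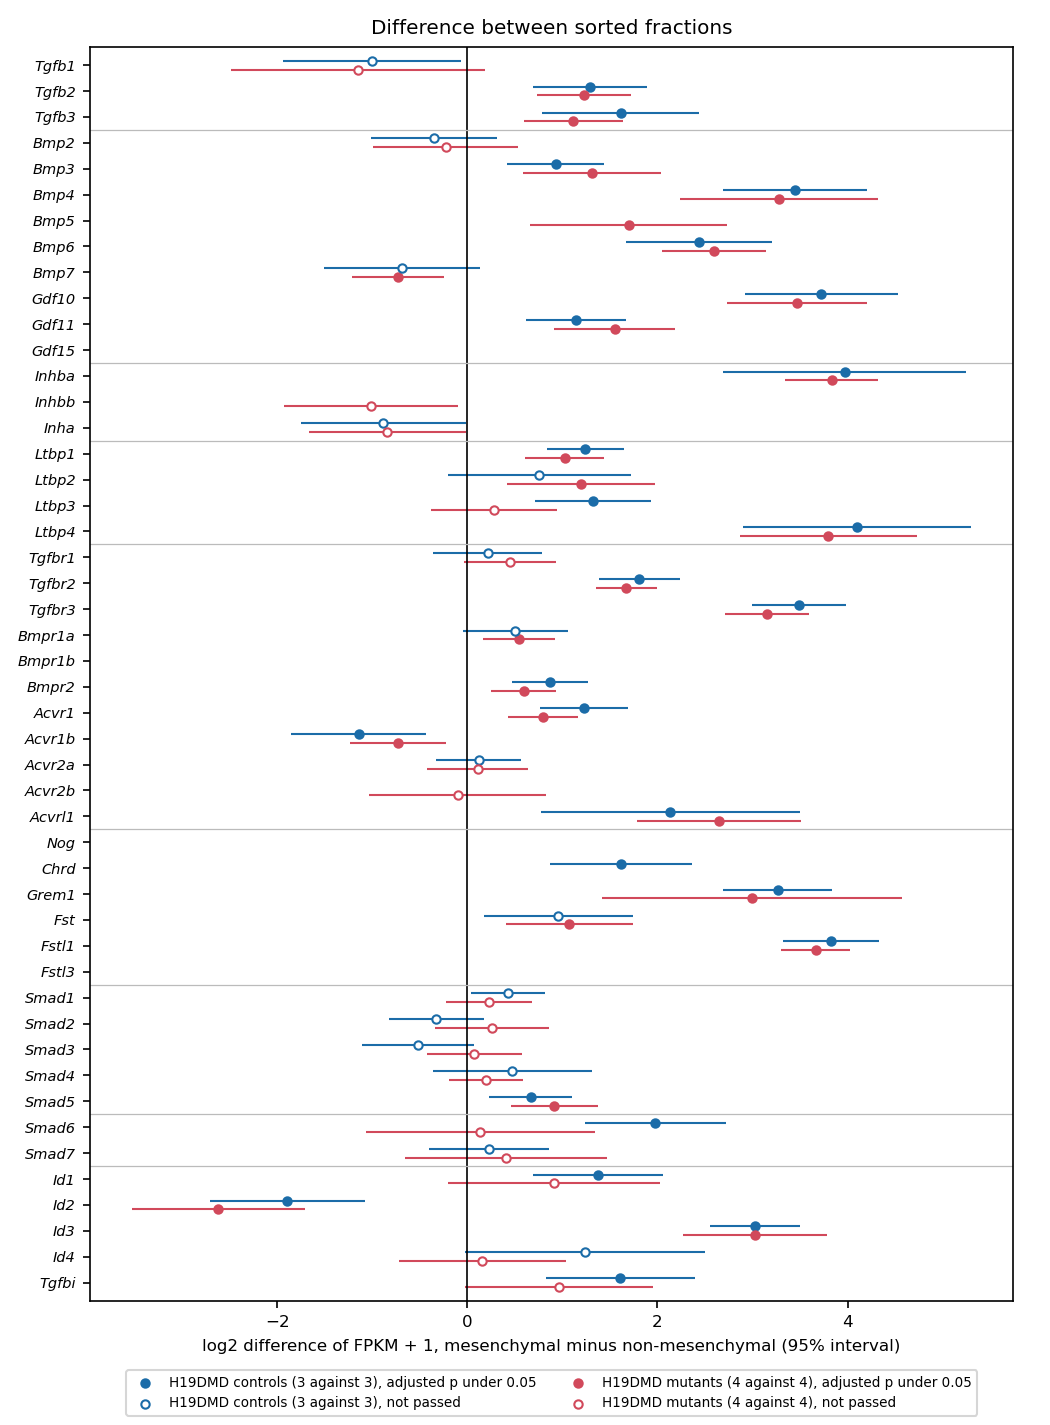
Log2 difference of FPKM + 1, mesenchymal minus non-mesenchymal, with its 95% interval from limma for each member tested, in the H19DMD controls (blue, 3 against 3) and mutants (red, 4 against 4). Filled points passed an adjusted p of 0.05; Fstl1, at 3.83 and 3.67, and Inhba, at 3.97 and 3.83, lie far to the right in both, and Id2 and Acvr1b lie below 0 in both.

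Other genes of the pathway showed both directions between fractions. Of 69 listed, 68 were found and 43 were tested in the H19DMD controls. There 17 were higher in mesenchymal cells, 5 were lower and 21 did not pass, with a median log2 difference of 0.52. Over all genes tested, 12.4% were called higher and 10.3% lower. Of the 43, 12 had a mean under 1 FPKM in 1 fraction, among them Fbn2, Nbl1, Sostdc1 and Itgb6, and so had to differ to be tested. Of the other 31, 10 were called higher and 3 lower. In the mutants 19 of 43 were higher and 8 lower, with a median of 0.28, where 13.5% of all genes were called higher and 15.1% lower. Of the 35 with at least 1 FPKM in both fractions, 15 were higher and 7 lower. No share over all genes is given for genes at that level in both fractions. By the rule for naming, the largest mesenchymal excesses were those of Fbn1 and Fbn2, encoding the fibrillins that bind latent TGF-beta complexes, and of Nbl1, encoding a BMP antagonist. Fbn1 read 175, 230 and 247 FPKM in mesenchymal and 3.03, 1.94 and 2.03 in non-mesenchymal controls (6.03 ± 0.22, adjusted p = 8.33e-05). Fbn2 and Nbl1 gave 5.47 ± 0.24 and 4.33 ± 0.44.

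On the other side stood genes with lower values in the mesenchymal cells. Sostdc1, encoding a secreted BMP and Wnt antagonist, read 0.179, 0.815 and 0 FPKM in mesenchymal and 16.7, 32.1 and 41.1 in non-mesenchymal controls (-4.50 ± 0.41). Itgb6, the epithelial integrin subunit that activates latent TGF-beta, read 0.286, 0.128 and 0.297 FPKM against 7.57, 13.5 and 28.8 (-3.65 ± 0.47). Tgif1, a Smad corepressor, and Tob1, an inhibitor of proliferation that binds Smads, gave -1.85 ± 0.16 and -1.49 ± 0.15.

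The next comparison asked what changed in mesenchymal cells that carry the H19DMD deletion, 4 mutant against 3 control libraries. No member passed: 0 of 42 tested, where 0.0694% of 15856 genes passed in limma, and the lowest adjusted p among members was 0.927. At an unadjusted p under 0.05 there was 1 member, Smad6, where 4.76% of all genes had such a p. The median log2 difference was -0.05 over the members tested and -0.07 over all genes tested. For 24 of the 42 members the 95% interval lay within 1 log2 unit of 0, so a change of 1 log2 unit was outside it, and for the others the spread leaves room for such a change.

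Smad6 read 1.74, 0.765, 3.91 and 0.808 FPKM in the mesenchymal mutants and 5.05, 3.70 and 5.77 in the controls. All but 1 mutant library lay below the controls, and the groups overlapped by that library. The log2 difference was -1.17 ± 0.42, with an unadjusted limma p of 0.0258 and an exact permutation p of 0.0857, where the smallest possible is 0.0286. Endothelial marker sums were 71.3 to 122 FPKM in these mutants and 78.4 to 86.1 in the controls, and their part in the Smad6 values was not tested. Ductal markers summed to 14.6 to 33.8 FPKM in the mutants and 34.9 to 80.8 in the controls, without overlap, smooth muscle and pericyte markers to 128 to 705 and 459 to 770, mesothelial markers to 83.4 to 131 and 120 to 264, and leukocyte markers to 28.5 to 66.8 and 16.3 to 30.7. Their part in the members' values was likewise not tested. Smad3 read 41.9, 67.3, 50.0 and 68.2 FPKM against 42.4, 40.7 and 34.0 (0.51 ± 0.22), and Smad2 read 32.2, 38.8, 33.5 and 54.7 FPKM against 28.3, 31.4 and 26.5 (0.43 ± 0.22, and 0.27 without the fourth mutant). Neither of these activin and TGF-beta Smads passed, with adjusted p of 0.927. Bmp2 read 1.00, 2.87, 0.613 and 1.34 FPKM against 3.67, 2.24 and 2.57 (-0.70 ± 0.37). Chrd read 2.25, 1.22, 1.39 and 1.74 FPKM against 2.33, 2.43 and 3.22 (-0.47 ± 0.27). Smad2, higher, and Chrd, lower, were the 2 members tested whose libraries did not overlap, where 5.39% of all genes tested had no overlap (1.62% higher, 3.77% lower), and after median-ratio scaling those were Smad2 and Smad3. The members that set the mesenchyme apart did not pass here. Means were 583 ± 77.3 against 546 ± 60.5 FPKM for Fstl1 in controls and mutants, a log2 difference of -0.09 (95% interval -0.50 to 0.32).

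Non-mesenchymal cells of the same mutants were compared with their controls in the same way. Igf2 itself read 45.4 to 157 FPKM in these mutants and 45.2 to 53.2 in the controls, a log2 difference of 1.00 ± 0.42 with an unadjusted limma p of 0.0466 and an adjusted p of 0.894, and the groups overlapped. Again 0 of 35 members tested passed in limma, where 0.0677% of 16239 genes did, and the lowest adjusted p was 0.892. At an unadjusted p under 0.05 there was 1 member, Bmp2, where 5.35% of all genes had such a p. Bmp2, a BMP ligand, read 2.04, 1.29, 1.28 and 2.46 FPKM in the mutants and 3.14, 3.39 and 5.20 in the controls. No mutant library reached a control, with -0.83 ± 0.28 on the log2 scale and an exact permutation p of 0.0286, the smallest this design can give. Bmp2 was also lower by means in the mutants' mesenchyme, above, and it did not pass in either fraction. For 23 of the 35 members the 95% interval lay within 1 log2 unit of 0.

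Ltbp3 read 8.10, 12.4, 7.64 and 14.6 FPKM in these mutants and 5.36, 7.09 and 6.98 in the controls (0.61 ± 0.26). Acvr1 read 8.98, 9.42, 6.67 and 9.07 FPKM against 5.50, 6.66 and 6.25 (0.41 ± 0.18), and Bmpr2 read 33.2, 38.1, 36.9 and 34.9 against 28.1, 29.0 and 31.7 (0.26 ± 0.13). For all 3 the mutants lay above the controls, for Acvr1 by a narrow margin, and none passed. Id4 read 2.05, 3.37, 3.84 and 1.28 FPKM against 2.13, 1.54 and 0.167 (0.73 ± 0.45), with overlap, and its log2 difference was 0.30 without the third control. In all, 6 of the 35 members had no overlap, 4 higher and 2 lower, where 5.68% of all genes tested had none (3.47% higher, 2.2% lower). The other two were Smad1 (16.03 to 18.7 against 13.7 to 15.9 FPKM) and Smad7 (2.48 to 3.86 against 4.10 to 5.02 FPKM), named after their values were seen, with adjusted p of 0.894 each. The same 6 had no overlap after median-ratio scaling. Endocrine markers summed to 10969 to 20109 FPKM in these mutants and to 19546 to 29320 in the controls, with overlap. Erythroid markers summed to 46.9 to 327 FPKM in the mutants and 23.1 to 94.2 in the controls, also with overlap. The part of either in these values was not tested.

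The last comparison was of non-mesenchymal cells whose neighbouring mesenchyme carried the Igf2 deletion, 3 mutant against 4 control libraries. No member passed: 0 of 38 tested in limma, where 0.0631% of 17441 genes did, with a lowest adjusted p of 0.919. At an unadjusted p under 0.05 there were 2 members, Id3 and Id4, where 5.28% of all genes had such a p. Id3 read 6.54, 10.1 and 12.1 FPKM in the mutants and 4.82, 6.61, 5.26 and 4.75 in the controls. Id4 read 0.410, 1.42 and 1.82 FPKM against 3.68, 2.13, 4.31 and 2.18. The log2 differences were 0.71 ± 0.25 for Id3, with 1 control above the lowest mutant, and -0.90 ± 0.37 for Id4, with no overlap, and neither passed (adjusted p = 0.919 for both). Id1 and Id2 gave -0.49 ± 0.53 and 0.01 ± 0.22, with overlap. Exact permutation p-values were 0.0571 for Id3 and 0.0286 for Id4, the latter the smallest this design can give. Id4 was the 1 member tested without overlap, where 6.02% of all genes had none (2.65% higher, 3.37% lower), and after median-ratio scaling Id3 had none either.

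Tgfbi read 12.99, 6.77 and 18.1 FPKM in the Igf2 mutants and 5.96, 7.52, 8.37 and 7.36 in the controls (0.63 ± 0.32). Bmp4 read 1.00, 4.93 and 3.40 FPKM against 1.09, 1.72, 0.931 and 1.09 (0.77 ± 0.43), and Ltbp3 read 15.7, 8.31 and 17.9 against 21.05, 17.9, 16.7 and 20.5 (-0.48 ± 0.27). All 3 overlapped between genotypes. Leaving out 1 mutant library moved the log2 differences to between 0.34 (without the third) and 0.98 (without the second) for Tgfbi and between 0.44 (without the second) and 1.22 (without the first) for Bmp4, and to -0.17 for Ltbp3 (without the second). The median log2 difference was -0.06 over the members tested and -0.03 over all genes tested, and for 20 of the 38 the 95% interval lay within 1 log2 unit of 0. Marker levels moved with genotype in these libraries: acinar markers summed to 28281 to 40371 FPKM in controls and 81800 to 94582 in mutants, with 7 and 8 of 8 markers at a mean of at least 1 FPKM and none at 0 throughout. Ductal markers summed to 950.4 to 1300 FPKM in controls and 779.9 to 948 in mutants, without overlap. Leukocyte markers summed to 581 to 844 and 815 to 1179 FPKM, with overlap and with all 7 at that level in both groups. Their part in the values of the members was not tested.

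**Figure D4:**
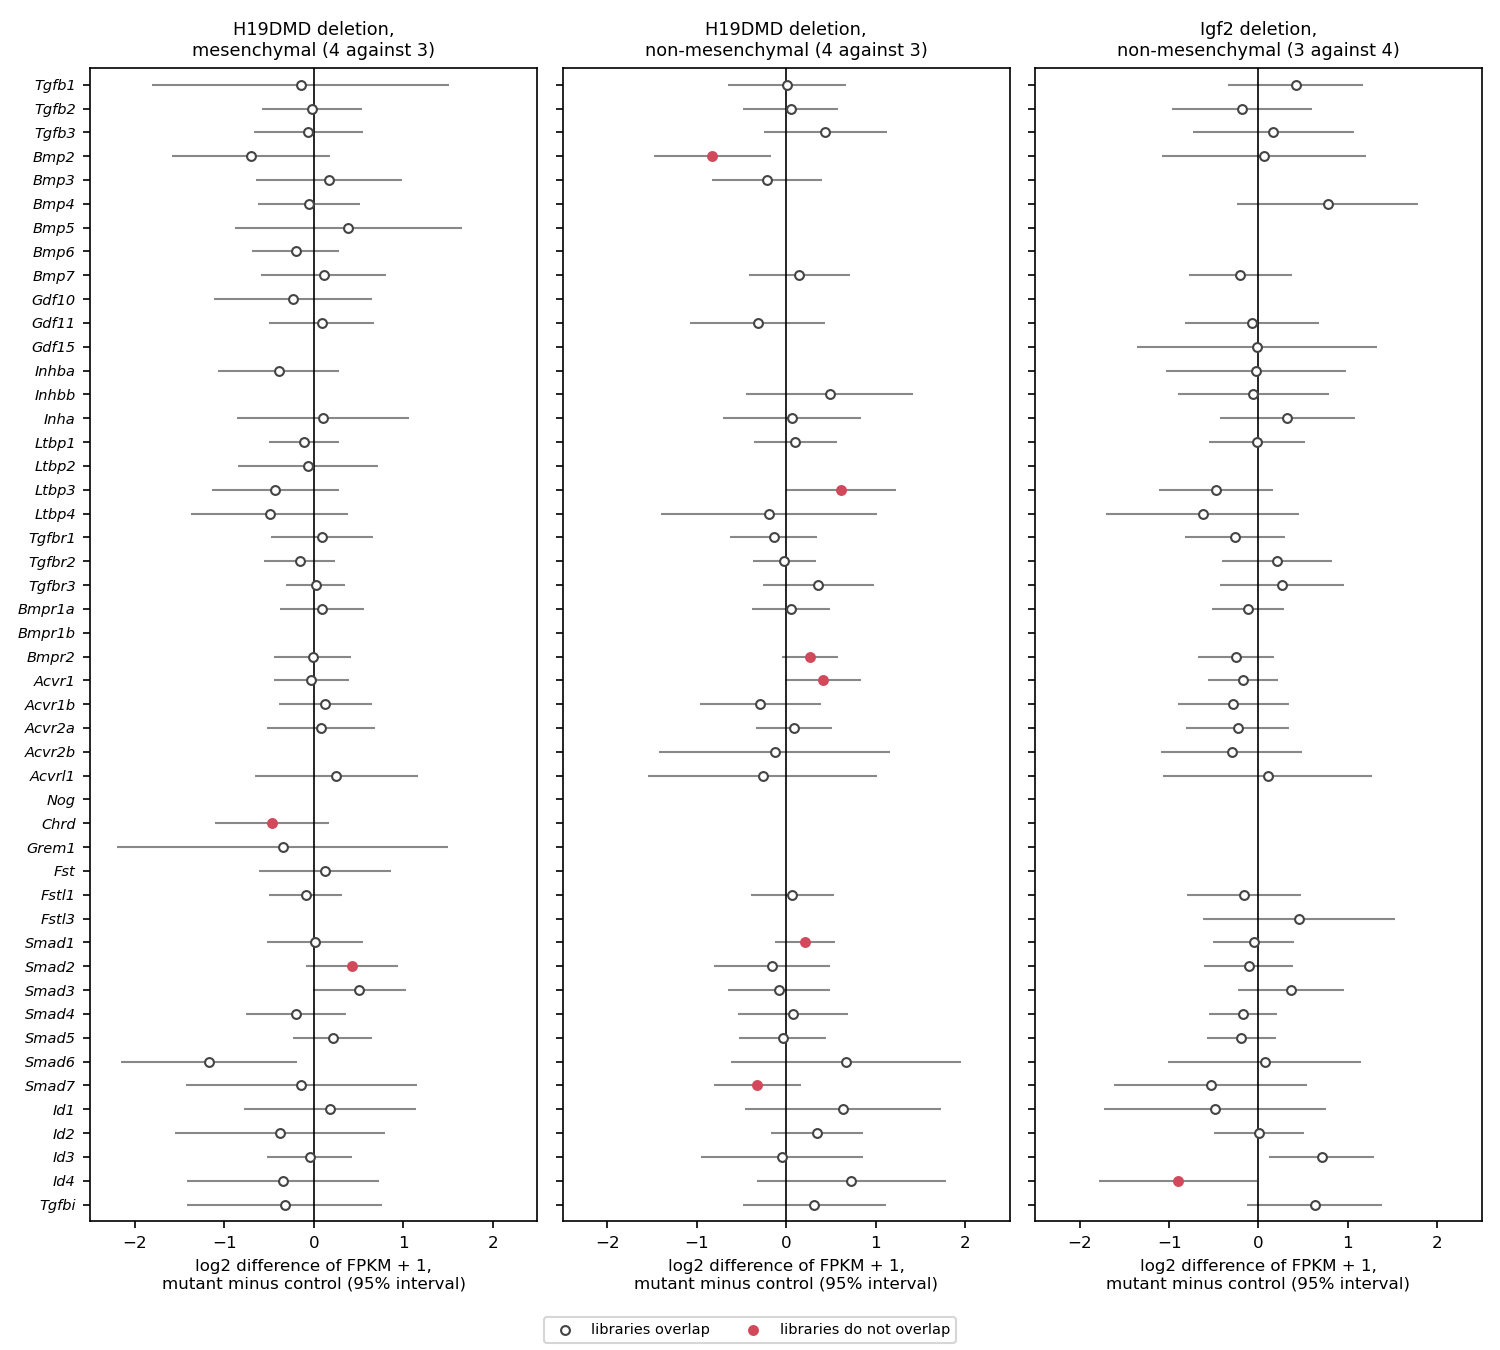
Log2 difference of FPKM + 1, mutant minus control, with its 95% interval from limma for each member tested, in the 3 mutant comparisons. Filled points are members whose libraries do not overlap between genotypes; no member passed the adjusted threshold, and the 95% interval excludes 0 for Smad6 in the mesenchyme, Bmp2 in the non-mesenchymal H19DMD cells and Id3 and Id4 in the Igf2 model.

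The members too low to test in the H19DMD controls are given by their levels. Bmp5, a BMP ligand, stood at 0.768 to 2.42 FPKM in mesenchymal controls and 1.10 to 7.02 in mesenchymal mutants, and at or under 0.251 in all 14 non-mesenchymal libraries. Gdf15, a stress-induced distant relative of the family, stood at or under 0.576 FPKM in the mesenchymal libraries, at or under 2.35 in the non-mesenchymal H19DMD libraries and at 0.546 to 6.203 in those of the Igf2 model. Inhbb, the activin B subunit, was at or under 0.948 FPKM in mesenchymal and at 0.843 to 3.73 in non-mesenchymal libraries. The receptors Bmpr1b and Acvr2b reached at most 2.16 and 3.35 FPKM in any library, and Fstl3, a follistatin relative, at most 3.61. Nog reached 1.67 FPKM in 1 mesenchymal control and at most 0.615 in the other libraries.

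The other pathway genes gave the same counts in the mutants, with 0 of 42, 0 of 37 and 0 of 38 tested passing in the 3 comparisons. Non-mesenchymal controls of the 2 models can be set side by side only as levels, since their tables were normalised separately. Ltbp3 read 5.36 to 7.09 FPKM in the H19DMD controls and 16.7 to 21.05 in the Igf2 controls, Tgfb1 5.45 to 8.49 and 9.85 to 21.5, and Id3 2.13 to 2.996 and 4.75 to 6.61. These ranges did not overlap, and model and table cannot be told apart. The genes are examples, and no count over members or share over all genes is given. Fstl1 (31.9 to 46.5 and 50.8 to 78.5 FPKM), Acvr1 and Bmpr2, among others, were also higher without overlap in the Igf2 controls. Smad5 lay the other way, at 25.8 to 34.4 and 19.3 to 24.1 FPKM. Levels of Id2 overlapped, at 38.3 to 67.2 and 40.6 to 61.2 FPKM.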

How the data were processed

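RNA from sorted pancreatic cells was amplified and sequenced as single reads, per the labels' protocols. TopHat2 2.0.8, Cufflinks 2.2.1 and GRCm38 are named per the submitters' processing notes, without roles. The deposited tables hold FPKM per gene, per the file headers, 1 table for each model. Values of 21 of 31 samples were matched by library name; the other 10 samples, and 8 columns, were not used here. Fractions, models and genotypes follow the labels.

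log2(FPKM + 1) was fitted with limma 3.58.1 (R 4.3.3, eBayes with trend, two-sided) within a table, over genes averaging 1 FPKM or more, with Benjamini-Hochberg adjustment over all genes at 0.05. Differences on this scale understate changes of low genes and are given with SE. The script was tested on simulated data. Alternatives changed the pseudocount, filter, scaling, trend, locus length and replicates. Members and lists were chosen with earlier results of these data known. Members past the threshold between fractions, the 5 with the smallest p in each mutant comparison, and the 4 largest other pathway genes each way were named, except 1 that is not reported here. Genes were located with GENCODE M21.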

Additional observations from a re-analysis of the deposited data

Results flagged for a closer look

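In 4 groups of 4 libraries, 1 library stood apart from the other 3 by Dixon's criterion at the 95% level, out of 118 groups of members examined, and chance gives about 1 in 20. The criterion was applied to log2(FPKM + 1), and on the FPKM printed here the groups that meet it differ. Acvrl1 read 7.55 FPKM in the first mesenchymal H19DMD mutant, where the other 3 gave 16.7, 16.7 and 16.9. Acvrl1 also read 0.246 FPKM in the third non-mesenchymal H19DMD mutant, where the others gave 1.71 to 2.13. Tgfbr3 read 50.6 FPKM in the fourth mesenchymal H19DMD mutant, where the others gave 44.4 to 45.0. Acvr1 read 6.67 FPKM in the third non-mesenchymal H19DMD mutant, where the others gave 8.98 to 9.42. In the same order of libraries the endothelial marker sum was 122, 97.6, 77.8 and 71.3 FPKM in the mesenchymal mutants and 22.1, 27.5, 16.3 and 23.1 in the non-mesenchymal mutants; its part in the Acvrl1 values was not tested.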

How the results depend on the processing

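Members called between fractions numbered 26 in the H19DMD controls. With a replicate block there were 17, all among the 26, and leaving out 1 library at a time gave 17 to 23; the other alternatives gave 20 to 26. In the H19DMD mutants 26 were called, 23 with the block (22 of the 26, and Inha, adjusted p = 0.0242 in limma), 20 to 25 with 1 library left out. The mutant comparisons and the interaction gave 0 members in every alternative. Of 713 values of called members under an alternative, 625 stayed past the threshold and 88 did not, with none reversed; the 306 values of members named in the mutant comparisons and the interaction were not called in any setting (adjusted p of 0.645 or more in limma). The block ended the calls of Tgfb3, Bmp3, Gdf11, Ltbp3, Acvrl1, Chrd, Smad5, Id2 and Tgfbi in controls and of Bmp5, Bmp7, Bmpr1a and Fst in mutants. Deviations of same-numbered libraries correlated at -0.05 to 0.07, under the 0.1 set for treating the numbers as pairs. Of 16 numbers, which include those of the mutant comparisons, 8 correlated best with their own. In the fraction contrasts this held for 5 of 7, with all 7 correlations above 0, at 0.006 to 0.07. Sorting can give both fractions of the same pancreas, but whether equal numbers mark the same pancreas is not stated. The calls as reported did not use pairs. With a pseudocount of 0.1 the log2 differences of low members were larger, in controls 4.74 for Bmp4, 5.85 for Gdf10, 5.08 for Inhba and 5.06 for Grem1, with the same calls. Over all genes, calls ranged from 2448 to 3918 (3785 as reported) and 3148 to 4943 (4802) between fractions, from 7 to 27 (11), 5 to 34 (11) and 2 to 37 (11) in the mutant comparisons, and from 2 to 9 (2) in the interaction. With 3 or 4 libraries a group and unknown depth, values near 1 FPKM are the least certain.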
